A study of Mus musculus with 6 samples.

Results

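Serum response factor (Srf) and 9 genes of the actin-based contractile apparatus were followed in cultured mouse cells that received IL-1β alone or together with the fascin inhibitor NP-G2-044. The 10 genes were listed by name, without a threshold on their values but with earlier results of these data known: Srf, the tropomyosin genes Tpm1, Tpm2 and Tpm4, the calponin genes Cnn1 and Cnn2, caldesmon (Cald1), transgelin (Tagln), α-smooth muscle actin (Acta2) and the myosin regulatory light chain Myl9. The gene table lists 16880 genes, among them 9 of the 10. Myl9 was not analysed here. Of the 9, 6 passed the filter on low counts and were among the 11983 genes tested (Cnn2, Cald1, Tpm1, Tpm2, Tpm4 and Srf).

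The 6 RNA-seq libraries come from ATDC5, an established chondrogenic cell line that was derived from a mouse teratocarcinoma, so all values describe 1 line. In 3 libraries the cells had received 10 ng/mL IL-1β (IL) and in the other 3 the same dose together with NP-G2-044 at 10 μM (ILN), a small-molecule inhibitor of the actin-bundling protein fascin. Both groups therefore carry the inflammatory stimulus, and the DMSO group that the study's methods describe was not analysed here. The titles name the compound NP-G2-044 while the treatment field of the same samples reads NP-G2-047, and the study speaks of chondrocytes where the labels name ATDC5.

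SRF is a transcription factor that binds the CArG box, a short element in the promoters and enhancers of many cytoskeletal genes. It works with 2 kinds of partner: the myocardin-related factors (MRTFs), which monomeric actin holds in the cytoplasm and which enter the nucleus when actin polymerizes downstream of RhoA, and the ternary complex factors (TCFs), which respond to ERK signaling and drive immediate early genes. Tropomyosins coil along actin filaments and set which other proteins can bind them. Calponins, caldesmon and transgelins bind the same filaments, bundle or stabilize them and restrain myosin, and in cultured cells these proteins decorate stress fibers.

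The promoter sequences are shown for their CArG boxes. Cnn2 and Srf hold letters that match the box exactly, Acta2 and Tpm1 letters that match with 1 letter off. Whether SRF binds an exact or a near match was not tested. RefSeq start sites on GRCm38.p6 gave windows of 250 bases upstream of the start for 9 of the 10 genes, 10 windows in all because Cald1 has 2, and the table holds none for Tagln. A CArG box is a palindromic 10-letter element of a CC pair, a run of A or T letters and a GG pair, so a match reads as a match on both strands. Capitals mark exact boxes and boxes with 1 letter off, written 5′ to 3′ on the gene's strand. The Cnn2 window is chr10:79988350-79988599 (+ strand), the Srf window chr17:46556163-46556412 (- strand), the Acta2 window chr19:34255374-34255623 (- strand) and the Tpm1 window chr9:67049214-67049463 (- strand).
Cnn2: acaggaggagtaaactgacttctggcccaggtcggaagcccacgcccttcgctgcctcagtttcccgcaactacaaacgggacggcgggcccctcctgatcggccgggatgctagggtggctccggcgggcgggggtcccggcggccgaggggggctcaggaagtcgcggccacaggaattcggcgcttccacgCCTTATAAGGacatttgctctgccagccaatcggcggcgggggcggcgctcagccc
Srf: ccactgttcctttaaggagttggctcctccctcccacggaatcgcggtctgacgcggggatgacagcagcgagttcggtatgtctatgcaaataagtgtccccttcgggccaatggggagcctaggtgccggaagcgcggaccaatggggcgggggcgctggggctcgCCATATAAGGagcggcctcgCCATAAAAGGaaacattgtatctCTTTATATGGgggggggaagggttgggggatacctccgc
Acta2: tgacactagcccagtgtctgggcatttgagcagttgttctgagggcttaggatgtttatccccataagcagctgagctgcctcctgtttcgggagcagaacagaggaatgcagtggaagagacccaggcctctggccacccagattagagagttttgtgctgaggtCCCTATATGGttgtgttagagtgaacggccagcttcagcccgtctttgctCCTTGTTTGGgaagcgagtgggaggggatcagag
Tpm1: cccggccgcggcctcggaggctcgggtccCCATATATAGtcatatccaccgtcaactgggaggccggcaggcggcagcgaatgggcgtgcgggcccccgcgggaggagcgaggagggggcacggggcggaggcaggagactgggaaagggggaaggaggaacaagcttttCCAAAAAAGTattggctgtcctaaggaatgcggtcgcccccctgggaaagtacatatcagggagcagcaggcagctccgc

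In Cnn2 the exact box began 56 bases before the start site. Srf held 2 exact boxes, 82 and 62 bases before its start, and a near match at 39 bases. The near matches of Acta2 began 84 and 34 bases before the start, and those of Tpm1 221 and 80 bases before it. All distances are from the RefSeq starts, which differ from the ends of the GENCODE gene spans given below. By those spans, which reach to 34255590 for Acta2 and 67049406 for Tpm1, most of these 2 windows lies within the gene. Of the windows not printed, Myl9 held an exact box 161 bases upstream and a near match at 99 bases, and 1 of the 2 Cald1 windows a near match at 203 bases. No such letters were in the windows of Cnn1, Tpm2 and Tpm4. In all, 3 of the 10 windows held an exact box, against 1.47% of 32851 RefSeq windows of the same length, and 6 of 10 held an exact or near match, against 18.6%. The letters TATAAA, searched on the gene's strand alone and not overlapping any of these boxes, were in 1 of the 10 windows, the second of Cald1, and in 7.59% of all windows. These are matches of letters only, in genes that were chosen as SRF targets. Among tested genes with a promoter window, the 135 with an exact box had a median log2 fold change of -0.0043. Of these, 44.4% were higher and 40.0% lower under NP-G2-044. The 9499 without one had a median of 0.0071, with 40.6% higher and 39.5% lower. Whether an exact box goes with a direction was not tested.

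Cnn2, Cald1, Tpm4 and Tpm1 were lower with NP-G2-044 and Srf itself was slightly higher. Levels are given as TPM, the authors' transcript abundance scaled to gene length and depth, and differences as log2 fold changes of ILN over IL from edgeR's quasi-likelihood test on the deposited counts, with Benjamini-Hochberg adjustment of the p-values across the 11983 tested genes. Of the 6 tested genes, 1 rose (Srf), 4 fell (Cnn2, Cald1, Tpm4 and Tpm1) and 1 did not pass the test (Tpm2) at an adjusted p under 0.05. Over all tested genes 40.2% rose and 39.8% fell, so most genes of the table moved and passing the test does not set these 6 apart. With a log2 fold change above 1 in size as well, 0 rose and 1 fell (Cnn2), where 6.48% of all tested genes rose and 10.1% fell. The median log2 fold change of the 6 was -0.19, against 0.00 over all tested genes. In bulk RNA, fewer cells of one type and less RNA per cell cannot be told apart.

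The plot of TPM by library shows how far apart the groups lie. On the scale of CPM (counts scaled to the library total) the 3 ILN libraries lay outside the range of the 3 IL libraries for 5 of the 6 tested genes, which was also the case for 80.8% of all tested genes. Replicates were close: the standard deviation was at most 5.29% of the mean in the IL group and at most 7.73% in the ILN group for these 6 genes. Library totals were 16615824 to 16878164 reads in the IL group and 17529844 to 17735860 in the ILN group.

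**Figure D1:**
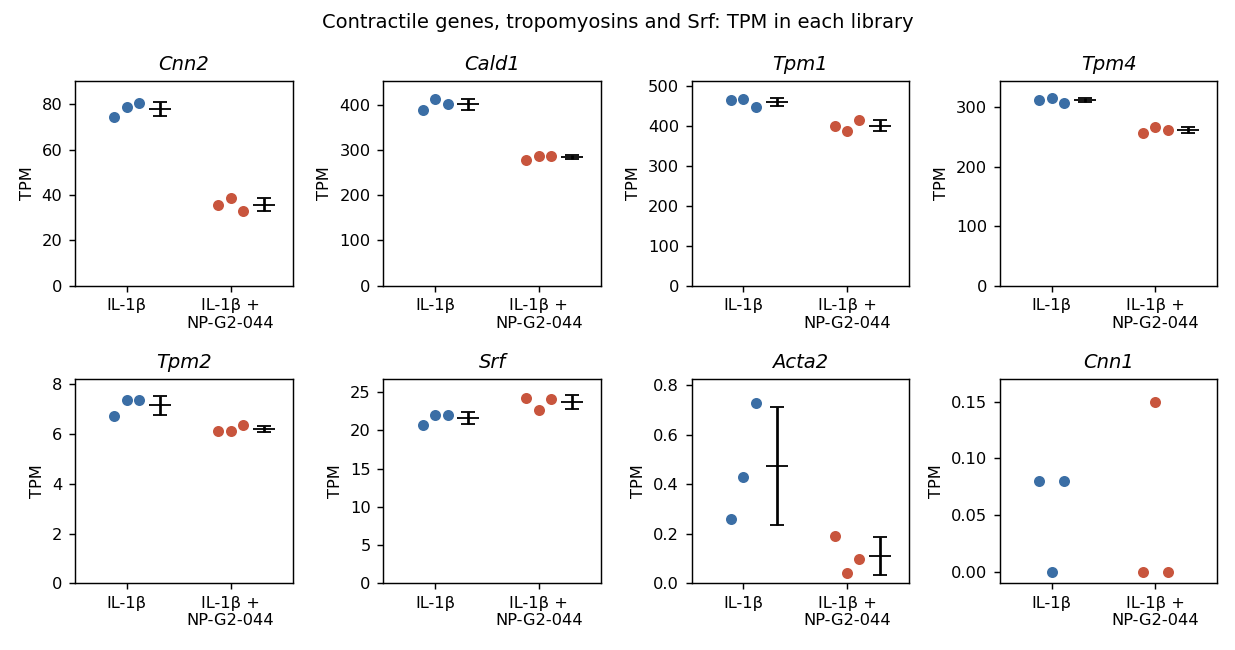
TPM (vertical axis, linear) of 8 genes in each of the 3 IL-1β libraries (blue) and the 3 IL-1β plus NP-G2-044 libraries (red), with the group mean ± SD in black except for Cnn1, which had 4 reads in all. Cnn2 falls from 78.0 to 35.8 TPM and Cald1 from 400.4 to 284.2 TPM without overlap between the groups, and Srf lies slightly higher with the inhibitor.

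Srf, on mouse chromosome 17 (46548329 to 46556175, minus strand, GRCm38), encodes the factor itself, and its promoter window held 2 exact CArG boxes. Its level was 20.64, 22.04 and 21.99 TPM in the IL libraries and 24.2, 22.59 and 24.14 TPM in the ILN libraries. All 3 ILN values lay above the 3 IL values, with a gap between the groups that was smaller than the spread within each. Group means were 21.6 ± 0.794 TPM and 23.6 ± 0.913 TPM (SD, n = 3), and on the counts Srf rose by 13.0% (log2 fold change 0.18, SE 0.04, edgeR adjusted p = 0.000318).

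Cnn2 encodes calponin 2, the calponin of non-muscle and many cultured cells, and lies on chromosome 10 (79988584 to 79996062, plus strand), with 1 exact CArG box in its promoter window. It had 74.35, 79.03 and 80.58 TPM with IL-1β alone and 35.75, 38.52 and 32.99 TPM with the inhibitor. The highest ILN library was thus below 40 TPM and the lowest IL library above 70 TPM. The mean went from 78.0 ± 3.24 to 35.8 ± 2.77 TPM (SD, n = 3), 2.14-fold lower on the counts (log2 fold change -1.10, SE 0.05, edgeR adjusted p = 2.52e-27). The reads behind it numbered 1206, 1244 and 1294 against 605, 666 and 571. Leaving out single libraries moved its log2 fold change between -1.15 and -1.04, so it passed the fold cutoff in each of those fits, close to the limit.

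Its close relative Cnn3, the acidic calponin, was the more abundant at 260.1 ± 3.94 TPM and fell less, to 217.1 ± 1.93 TPM (SD, n = 3; log2 fold change -0.23, edgeR adjusted p = 3.26e-10). Cnn2 accordingly made up 22.2%, 23.0% and 23.9% of the calponin TPM in the IL libraries and 14.1%, 15.2% and 13.1% in the ILN libraries. Of the 50-base transcript stretches of Cnn3, 24% also occur in other genes, most often Gm42928. The level of Cnn3 and these shares carry that uncertainty. Cnn1, the calponin of differentiated smooth muscle, was all but absent, with 1, 0 and 1 reads in the IL libraries and 0, 2 and 0 in the ILN libraries. The pooled ratio of IL over ILN for Cnn1 was 1.05 (exact binomial 95% interval 0.0763 to 14.5), so no difference was detectable at this depth.

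Cald1 encodes caldesmon, which binds actin, tropomyosin and myosin and holds back the myosin ATPase. It lies on chromosome 6 (34598500 to 34775473, plus strand), and its 18 annotated transcripts include the short non-muscle and the long smooth muscle forms, which the gene-level values do not separate. Its level was 388.4, 411.49 and 401.43 TPM with IL-1β and 278.67, 287.02 and 286.76 TPM in the ILN group. The groups were more than 100 TPM apart at their nearest libraries, several times the spread within each. The mean went from 400.4 ± 11.6 to 284.2 ± 4.75 TPM (SD, n = 3), and on the counts Cald1 fell by 27.7% (log2 fold change -0.47, SE 0.03, edgeR adjusted p = 3.66e-22).

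Transgelin (Tagln, also SM22α), an actin-crosslinking calponin relative and a classical SRF target, was listed at 0 in all 6 libraries. A count of 0 allows up to 3 reads per library, which corresponds to 0.169 to 0.181 CPM and covers counting error only, and no fold is given. Of the exonic bases of Tagln on chromosome 9 (45929619 to 45936058, minus strand), 62.4% overlap the antisense gene Gm48529 and 5.4% the gene Pcsk7, both on the opposite strand, and the sources used here do not say whether the counting used strand. In the table Pcsk7 had 1750 reads in the IL group and 1804 in the ILN group, whereas Gm48529 is among the genes not analysed here. Whether these overlaps bear on the 0 was not tested. Tagln2, the broadly expressed transgelin, was abundant and fell: 332.13, 323.55 and 316.25 TPM against 175.66, 192.48 and 190.13 TPM. The mean went from 324.0 ± 7.95 to 186.1 ± 9.11 TPM (SD, n = 3), and on the counts it fell by 41.4% (log2 fold change -0.77, SE 0.03, edgeR adjusted p = 2.52e-23).

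Among the tropomyosins, Tpm1 was the most abundant, followed by Tpm3 and Tpm4, and Tpm2 was low. Tpm1 and Tpm4 fell by modest amounts, and Tpm3 and Tpm2 did not pass the test. Tpm1 (chromosome 9, 67022590 to 67049406, minus strand) had 464.23, 466.57 and 446.99 TPM with IL-1β alone and 400.07, 386.11 and 414.82 TPM with the inhibitor. It has 21 annotated transcripts, striated muscle, smooth muscle and cytoplasmic forms among them, and the table sums them. The groups did not overlap, and the counts fell by 10.6% (log2 fold change -0.16, SE 0.03, edgeR adjusted p = 3.15e-06).

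Tpm4 encodes a cytoplasmic tropomyosin of stress fibers and lies on chromosome 8 (72134975 to 72153142, plus strand). It had 313.31, 315.27 and 308.19 TPM in the IL libraries and 256.42, 266.86 and 262.8 TPM in the ILN libraries. The groups were clearly apart, with means of 312.3 ± 3.66 and 262.0 ± 5.26 TPM (SD, n = 3). Tpm4 fell by 14.3% on the counts (log2 fold change -0.22, SE 0.03, edgeR adjusted p = 7.45e-10). Of its 50-base stretches of transcript 15.7% also occur in another gene, mostly the pseudogene Gm7809, so the origin of part of its reads is uncertain. Gm7809 is not among the listed genes.

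Tpm2, the β-tropomyosin of muscle and fibroblasts, lies on chromosome 4 (43514711 to 43523765, minus strand). Its level was 6.71, 7.37 and 7.36 TPM with IL-1β alone and 6.12, 6.13 and 6.35 TPM with the inhibitor. The groups did not overlap in TPM but did in CPM, where 95 to 108 reads stood behind each value. The count test gave a log2 fold change of -0.15 (95% interval -0.38 to 0.08, edgeR adjusted p = 0.249), an interval that holds the changes of both Tpm1 and Tpm4. On log2(TPM + 1) limma called it lower (log2 difference -0.18, adjusted p = 0.0264), so the call for Tpm2 turns on the scale and the test.

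Tpm3, the relative with cytoplasmic forms that are broadly expressed, stood at 333.9 ± 7.90 TPM in the IL libraries and 326.7 ± 5.47 TPM in the ILN libraries (SD, n = 3). Its groups overlapped, and its log2 fold change of 0.00 had a 95% interval of -0.05 to 0.05 (edgeR adjusted p = 0.996). That interval excludes the fitted changes of Tpm1 and Tpm4, although the difference between the genes was not itself tested. For Tpm3 23.2% of the 50-base transcript stretches are shared with the retrogene Tpm3-rs7.

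Together the 4 tropomyosin genes summed to 1119.02, 1130.61 and 1088.21 TPM in the IL libraries and 993.72, 979.67 and 1012.33 TPM in the ILN libraries. Within that total the mean share of Tpm3 was 30.01% with IL-1β and 32.8% with NP-G2-044, that of Tpm4 28.1% and 26.3%, that of Tpm1 41.3% and 40.2%, and that of Tpm2 0.643% and 0.623%. For Tpm3, Tpm4 and Tpm1 the shares of the groups did not overlap, and for Tpm2 they did. The make-up of the family thus moved by less than 3 percentage points for any gene while its total decreased. These shares are given as values and were not tested.

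**Figure D2:**
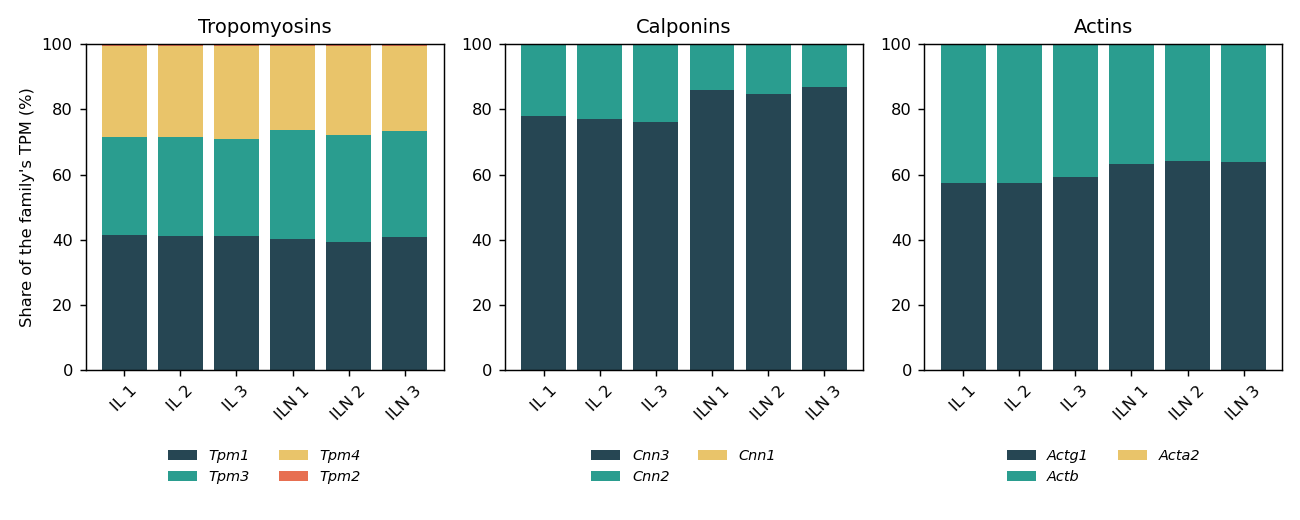
Share of each family's summed TPM (vertical axis, percent) in the 3 libraries with IL-1β (IL 1 to 3) and the 3 with IL-1β plus NP-G2-044 (ILN 1 to 3), for tropomyosins, calponins and actins, 1 bar per library. The Cnn2 share of the calponins drops from 23.1% to 14.1% and the Actg1 share of the actins rises from 57.9% to 63.8%, while the tropomyosin shares move by under 3 percentage points. Tpm2, Cnn1 and Acta2 are too small to see, and Acta1, also near 0, is not drawn.

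Acta2, on chromosome 19 (34241090 to 34255590, minus strand), encodes the actin of smooth muscle cells and myofibroblasts and was close to absent. Its reads were 5, 8 and 10 in the IL libraries and 3, 1 and 2 in the ILN libraries, or 0.26, 0.43 and 0.73 TPM against 0.19, 0.04 and 0.1 TPM. The groups did not overlap, and the pooled reads, 23 against 6, gave a ratio of IL over ILN of 4.03 (exact binomial 95% interval 1.6 to 12.1, counting error only). Acta2 did not pass the filter and has no place in the counts above. Without the filter edgeR gave a log2 fold change of -1.94 (SE 0.65, adjusted p = 0.00494), at a level that never reached 1 TPM. In 0.326% of its 50-base transcript stretches Acta2 is shared with another gene, the pseudogene Actg-ps1.

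The cytoplasmic actins moved the other way. Actg1 (γ-actin) rose from 1642 ± 45.7 to 2238 ± 46 TPM (SD, n = 3; log2 fold change 0.48, SE 0.03, edgeR adjusted p = 3.49e-23), and 37.4% of its 50-base stretches occur in other genes, mostly the pseudogene Gm12715. Actb (β-actin) had 1191 ± 45.9 and 1269 ± 34.1 TPM (SD, n = 3), with groups that overlapped in TPM and a log2 fold change of 0.12 on the counts (SE 0.03, edgeR adjusted p = 7.42e-05). For Actb 9.12% of the 50-base stretches occur in other genes, mostly Lrrc58. All actins summed to 2833.8 ± 72.4 TPM with IL-1β and 3507.6 ± 72.4 TPM with NP-G2-044, of which Acta2 was under 0.03% in every library. With tropomyosin transcripts lower and actin transcripts higher, there were 40.4, 38.8 and 38.6 tropomyosin TPM per 100 actin TPM in the IL libraries and 27.9, 27.7 and 29.6 in the ILN libraries, ranges far apart. The muscle actins were at or near 0: Actc1 and Actg2 were listed at 0 throughout, and Acta1 lay between 0.07 and 0.44 TPM with overlapping groups.

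The light chains that take the place of Myl9 outside smooth muscle did not share a direction. Myl12b fell from 331.0 ± 5.53 to 245.8 ± 1.84 TPM (SD, n = 3; log2 fold change -0.41, edgeR adjusted p = 3.82e-16) and Myl12a rose from 289.6 ± 6.02 to 320.3 ± 4.62 TPM (log2 fold change 0.17, edgeR adjusted p = 3.72e-07). The transcripts of these neighboring genes overlap and share 50-base stretches, 21.1% of those of Myl12a and 19.1% of those of Myl12b, so the split of reads between them is uncertain. Their sum was 620.6 ± 7.82 TPM with IL-1β and 566.1 ± 2.91 TPM with the inhibitor. Myl6, the essential light chain, went from 822.1 ± 2.27 to 624.5 ± 5.16 TPM (SD, n = 3) and fell by 22.2% on the counts (edgeR adjusted p = 4.95e-16). For Myl6 8.38% of the 50-base stretches occur in other genes, mostly Gm5526. Of the 12 relatives considered, 8 were tested. Of these, 3 rose (Actb, Actg1 and Myl12a), 4 fell (Tagln2, Cnn3, Myl6 and Myl12b) and Tpm3 did not pass, where 40.2% of all tested genes rose and 39.8% fell. With the fold cutoff as well, 0 rose and 0 fell, where 6.48% of all tested genes rose and 10.1% fell. Tagln3 had 1 read in each group.

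**Figure D3:**
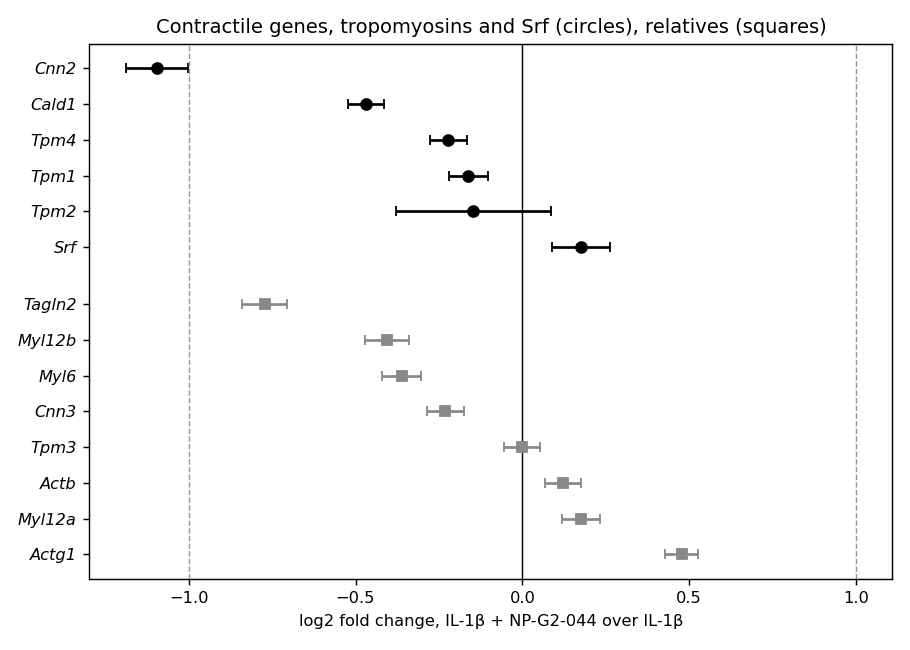
Log2 fold change of ILN over IL (horizontal axis) for the 6 tested genes of the group (black circles) and 8 tested relatives (gray squares), with bars for the 95% interval and dashed lines at a change of 1 in either direction. Cnn2 at -1.10 is the one point beyond a dashed line. Tpm2 and Tpm3 have intervals that include 0, and Srf, Actb, Myl12a and Actg1 lie to the right of 0.

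In the order of level, the genes ran Tpm1, Cald1, Tpm4, Cnn2, Srf, Tpm2, Acta2 and Cnn1 in the IL group, with Tagln at 0. No library of a gene in this order reached the range of the next one in the IL group. In the ILN group the order was the same, and Cald1 (278.67 to 287.02 TPM) and Tpm4 (256.42 to 266.86 TPM) came closer but did not overlap, while Acta2 and Cnn1 did. The abundant genes ranked 275 (Tpm1), 365 (Cald1) and 441 (Tpm4) of the 16880 listed genes by mean TPM over the 6 libraries, Cnn2 ranked 2930 and Srf 5994.

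The defining genes of smooth muscle were at or near 0, as were those of mature cartilage. Of 10 markers of smooth muscle cells and pericytes, 6 stayed under 1 TPM, Des was listed at 0 throughout, and Myocd, the muscle-restricted SRF cofactor, had 1 read in the 6 libraries together. The sum of this list was 75.1 to 81.8 TPM with IL-1β and 56.7 to 60.7 TPM with NP-G2-044. Most of it came from Smtn (38.4 ± 2.54 to 29.1 ± 1.0 TPM, log2 fold change -0.37) and Pdgfrb (33.0 ± 0.559 to 21.5 ± 1.26 TPM, log2 fold change -0.59), each with SD, n = 3. Of the genes at lower levels, Cspg4 rose from 1.77 to 7.45 TPM (log2 fold change 2.11, edgeR adjusted p = 4.91e-31) and Mcam fell from 4.96 to 0.457 TPM (log2 fold change -3.38, edgeR adjusted p = 1.27e-21). Of 10 chondrocyte markers 6 were listed and 5 of these lay under 1 TPM, Col2a1 among them, with a sum of 6.32 to 7.49 TPM against 11.4 to 11.6 TPM that was nearly all Sox9. Sox9 rose (log2 fold change 0.85, edgeR adjusted p = 5.07e-16), and Col2a1, with 32 reads in the IL group and 6 in the ILN group, fell (log2 fold change -2.41, edgeR adjusted p = 4.76e-05).

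Of the fibroblast markers Col1a2 and Fn1 were abundant and the other 6 stayed under 10 TPM. Of the 8 genes, 6 were tested, 4 fell and 2 rose, with a median log2 fold change of -1.76. Past both cutoffs 4 fell and 1 rose. Over all tested genes 39.8% fell and 40.2% rose, with 10.1% lower and 6.48% higher past both cutoffs. The 8 genes summed to 1462 to 1503 TPM with IL-1β and 743 to 772 TPM with the inhibitor. Col1a2 carried most of that, falling from 1098 ± 27.0 to 330.8 ± 6.80 TPM, whereas Fn1 rose from 360.5 ± 11 to 416.6 ± 9.42 TPM (SD, n = 3) and Thy1 was listed at 0. The striated muscle list, with 6 of 10 genes listed and 5 of these under 1 TPM, summed to 1.25 to 1.93 TPM and 1.37 to 2.01 TPM. What part the change in the fibroblast genes has in the falls of Cnn2, Cald1, Tpm1 and Tpm4 was not tested.

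The counts for the upstream route to SRF were close to those of the whole table. Of 18 genes for SRF cofactors and the RhoA pathway, 17 were tested, 7 rose, 7 fell and 3 did not pass, where 40.2% of all tested genes rose and 39.8% fell, with a median log2 fold change of -0.03. On log2(TPM + 1) limma called 4 higher. Rhob, a short-lived small GTPase of endosomes, rose from 33.1 ± 0.847 to 103.5 ± 3.45 TPM (SD, n = 3; log2 fold change 1.68, edgeR adjusted p = 4.32e-39). Elk3, a TCF that can repress SRF targets, fell from 44.2 ± 0.273 to 16.2 ± 0.0751 TPM (SD, n = 3; log2 fold change -1.41, edgeR adjusted p = 1.29e-35). These 2 were the genes of the list past both cutoffs, where 6.48% of all tested genes rose and 10.1% fell past both. The MRTF genes, named here after their values were seen, were lower by less: Mrtfa had a log2 fold change of -0.29 (edgeR adjusted p = 9.97e-12) and Mrtfb one of -0.58 (edgeR adjusted p = 2.51e-17). These are transcript levels and say nothing of where the MRTF proteins lay.

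Among other genes known as MRTF-SRF targets, more passed the test as lower than as higher. Of 25 such genes, 23 were tested, 15 fell, 6 rose and 2 did not pass, with a median log2 fold change of -0.53 against 0.00 over all tested genes, and 5 fell and 3 rose past both cutoffs. Over all tested genes 39.8% fell and 40.2% rose, with 10.1% lower and 6.48% higher past both cutoffs. Thbs1, the matrix glycoprotein thrombospondin 1, went from 177.37, 199.85 and 195.44 TPM to 7.67, 7.53 and 7.2 TPM (log2 fold change -4.64, SE 0.04, edgeR adjusted p = 4.67e-52). Filip1l (22.9 to 7.63 TPM, log2 fold change -1.55) and Lima1, the actin-bundling protein EPLIN (34.0 to 14.8 TPM, log2 fold change -1.16), fell as well. Zyx, the focal adhesion and stress fiber protein zyxin, went the other way, from 90.36, 88.1 and 89.01 TPM to 232.2, 232.37 and 244.26 TPM (log2 fold change 1.46, SE 0.03, edgeR adjusted p = 2.05e-41). The list therefore held genes that moved in both directions past the cutoffs.

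TCF-SRF targets, mostly immediate early genes, ranged from near 0 to the level of Junb. Of 11 genes 7 were tested, 4 rose, 2 fell and 1 did not pass, where 40.2% of all tested genes rose and 39.8% fell, with a median log2 fold change of 0.22 against 0.00 over all genes. Ier2 rose from 19.8 ± 1.02 to 39.4 ± 1.39 TPM (SD, n = 3; log2 fold change 1.02, edgeR adjusted p = 1.14e-19), at the fold cutoff itself, and Junb from 232.1 ± 2.66 to 263.9 ± 10.2 TPM (log2 fold change 0.22, edgeR adjusted p = 1.13e-08). Past both cutoffs 1 gene of the list rose (Ier2) and 0 fell, where 6.48% of all tested genes rose and 10.1% fell. Fos, the classical target, stayed under 1 TPM in every library and was not tested.

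Of 11 genes for calmodulins, myosin phosphatase subunits, kinases and Myl6, which regulate or form part of myosin II, 10 were tested, 7 fell and 3 rose, where 39.8% of all tested genes fell and 40.2% rose. The median log2 fold change was -0.25, against 0.00 over all tested genes. Calmodulin activates myosin light chain kinase and binds caldesmon and calponin. Of its genes, Calm2 fell from 607.5 ± 7.32 to 298.7 ± 6.57 TPM (SD, n = 3; log2 fold change -0.998, edgeR adjusted p = 3.76e-35) and Calm3 from 166.2 ± 5.10 to 117.1 ± 4.73 TPM (log2 fold change -0.47, edgeR adjusted p = 4.41e-18). The fold of Calm2 fell just short of the cutoff. The 1 gene past both cutoffs was Mylk3, the cardiac light chain kinase, which rose while remaining under 1 TPM in every library. Past both cutoffs 6.48% of all tested genes rose and 10.1% fell.

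**Figure D4:**
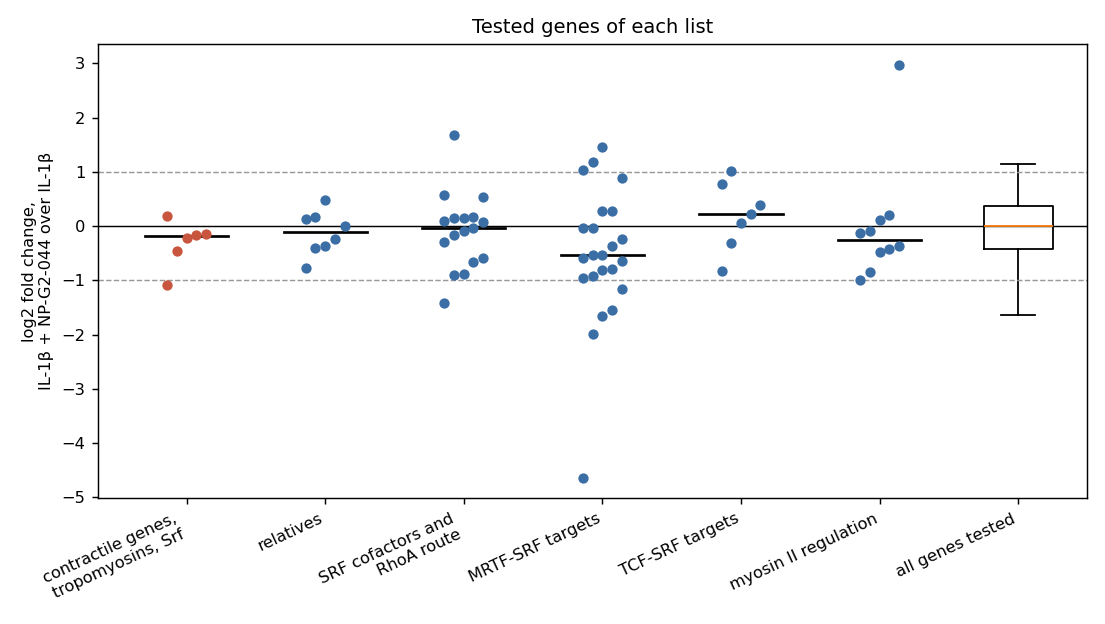
Log2 fold change of ILN over IL (vertical axis) for each tested gene of the group (red) and of its relatives and the 4 pathway lists (blue), with black bars at the list medians. The box at the right gives the 25th to 75th percentile of all 11983 tested genes (-0.43 to 0.36) with whiskers at the 5th and 95th (-1.64 to 1.15), and dashed lines mark a change of 1. The MRTF-SRF targets have the lowest list median, -0.53, and spread from -4.64 to 1.46, and the contractile genes lie between -1.10 and 0.18.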

How the data were processed

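RNA for the 6 ATDC5 libraries, 3 per group, was extracted and sequenced by BGI. The study's methods call them biological replicates, and the sample titles do not say whether they were separate cultures. The methods also name BGI for quantifying the final libraries. The submitters' processing notes name cutadapt, HISAT2 2.0, StringTie and mm10. Not given in the sources used here are the counting tool, the annotation and the use of strand. Per the file headers the authors deposited an estimated count, an FPKM and a TPM for each gene and library, along with group averages, which were not used. The estimated counts were made by the authors by quantifying reads per gene and are not normalized, and 10.17% to 11.06% of them per library are not whole numbers. The deposited TPM and FPKM were scaled by the authors to gene length and depth. TPM was used for levels, and FPKM was not used.

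Counts were rounded, filtered with filterByExpr (minimum count 10), scaled by TMM (factors 0.9975 to 1.002) and compared, 3 against 3 without covariates, in edgeR 4.0.16 under R 4.3.3 by its quasi-likelihood test (glmQLFTest after a robust glmQLFit). P-values carry a Benjamini-Hochberg adjustment across all 11983 genes tested. They weigh the group difference against the variation among these libraries alone. That variation was small: edgeR's common estimate of variation beyond counting error was 2.33%. Squared count differences were on average 1.54 to 2.39 times those of sampling within a group and 133 to 136 times between groups. Cutoffs were an adjusted p of 0.05 and, where said, a log2 fold change of 1 in size. The SE of a log2 fold change was its size divided by the square root of the test's F statistic. Its 95% interval is 1.96 SE on either side, a normal approximation that the test itself does not supply. For Acta2 and Cnn1 the pooled reads were compared by an exact binomial (Clopper-Pearson) 95% interval, scaled by the read totals. A count of 0 was taken to allow 3 reads. Intervals and limits of this kind cover counting error only. The edgeR fit, and no other step, was tested on simulated data in which, unlike here, most genes did not change.

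All 10 genes and each relative are named. From every other list up to 4 genes with the largest log2 fold change in size are named among those past both cutoffs with a mean of at least 10 TPM, or past the adjusted p where fewer than 2 pass both. The result of 1 gene under this rule is not reported here. Genes and lists were chosen with earlier results of these data known. Genes named outside the rule (Mrtfa, Mrtfb, Fos, Mylk3, Col2a1, Sox9, Cspg4, Mcam, Des, Myocd and Thy1) were chosen after their values were seen. Promoter windows came from RefSeq on GRCm38.p6, and gene positions, overlaps and shared 50-base transcript stretches from GENCODE vM21 on GRCm38.

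Other settings tried were edgeR with size factors of DESeq2 or with library size alone, DESeq2 1.42.0, limma-voom (limma 3.58.1), limma on log2(TPM + 1) and log2(TPM + 0.1), no filter, a minimum of 10 CPM in 3 libraries or more, a block on the replicate number, and leaving out each library in turn.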

Additional observations from a re-analysis of the deposited data

How the results depend on the processing

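The 5 called genes (Cnn2, Cald1, Tpm4, Tpm1 and Srf) kept their direction and their call in each of the 15 alternatives, with log2 fold changes of -1.15 to -1.04 for Cnn2, -0.50 to -0.45 for Cald1, -0.25 to -0.20 for Tpm4, -0.20 to -0.13 for Tpm1 and 0.13 to 0.21 for Srf, whose highest adjusted p was 0.0299. Tpm2 was called lower by limma on log2(TPM + 1) (-0.18, adjusted p = 0.0264) and on log2(TPM + 0.1) (-0.20, adjusted p = 0.0291), in no other alternative, and had no value under the filter of 10 CPM. Genes of the group that fell past both cutoffs numbered 2 in place of 1 with DESeq2 and with no filter, the second being Acta2, which the filter removes otherwise (log2 fold change -2.01, adjusted p = 0.0441 with DESeq2 and -1.94, adjusted p = 0.00494 with no filter). With the replicate block 1 gene of the group rose and 4 fell, as without it, and over all genes 4779 rose and 4719 fell in place of 4816 and 4768. Deviations of same-numbered libraries from their group means correlated at -0.093, -0.024 and 0.026, and libraries did not all correlate best with their own number. With 3 libraries per group such deviations are tied to one another, so these values cannot exclude that libraries were paired. The block changed no call of a named gene of the group. Of the pathway counts, SRF cofactors that rose numbered 4 with limma on either TPM scale, and MRTF-SRF targets that rose numbered 3 and TCF-SRF targets that fell 0 under the filter of 10 CPM, which tests fewer genes. TCF-SRF targets past both cutoffs numbered 0 higher (Ier2, at the cutoff) with limma on either TPM scale and under the filter of 10 CPM, and 1 lower with DESeq2 and with no filter. With single libraries left out, 0 to 1 were higher and 0 to 1 lower. Myosin II regulators past both cutoffs numbered 0 higher with limma on log2(TPM + 1) and under the filter of 10 CPM. In the lower direction they numbered 1 with DESeq2 size factors, DESeq2, limma on either TPM scale and the filter of 10 CPM, and 0 to 1 with single libraries left out, Calm2 lying at the cutoff. The cause of these shifts was not tested beyond the genes removed by a filter. The differences in family share of the 6 genes recomputed (Tpm1, Tpm2, Tpm3, Tpm4, Cnn2 and Actg1) kept their sign and moved by less than the larger of the group SDs whether libraries were left out or CPM replaced TPM, and for Tpm1 they ranged from -1.44 to -0.658 percentage points. Acta2, Cnn1 and Tagln had too few reads to pass the filter, and with 3 libraries per group an exact permutation test could not reach 0.05.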
